A study of Mus musculus with 2 samples.

Results

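The 32 genes described here are p53 and genes of its pathway, most of them genes that p53 switches on. They were chosen by symbol from a fixed list, and all 32 were found among the 19294 genes of the count table. p53 is a transcription factor held at a low level by the ubiquitin ligase Mdm2, and it is stabilized when DNA is damaged or the cell is stressed. It then raises genes that stop the cell cycle, start apoptosis, repair DNA or adjust metabolism, and it raises Mdm2 itself, which closes a feedback loop. In the intestinal crypt it is best known for the response to irradiation, in which Cdkn1a arrests cells and Bbc3 kills them.

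The data are mRNA-seq counts of mouse intestinal organoids (mIOs) grown from jejunal crypts of Lgr5-EGFP-IRES-creERT2 mice, whose Lgr5 locus drives EGFP and an inducible Cre and marks crypt stem cells. The organoids are epithelial structures kept in Matrigel with EGF, Noggin and R-spondin. One library came from untreated control mIOs and 1 from mIOs treated with dextran sulfate sodium (DSS), a sulfated sugar polymer that damages intestinal epithelium, both labelled day 4. Both libraries carry the same reporter genotype, the concentration of DSS is not given for the sequenced culture in the sources used here, and the sources do not say how many animals or wells a library holds.

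Sequencing depth was 65493032 counts for control mIOs and 59746968 for DSS mIOs. Counts were scaled with TMM factors, and a value below is either a raw count, a level in CPM (scaled counts per 1e6 counts), or the log2 ratio of scaled counts, DSS over control. With 1 library per condition there is no replicate spread, and neither a test nor a p-value is given. The 95% interval of a ratio follows it in parentheses, is of the exact Clopper-Pearson kind and covers counting error only. A difference between the log2 ratios of 2 genes has the interval of the Poisson error of its counts. "Higher" and "lower" therefore compare these 2 libraries. Genes were counted as higher or lower where the log2 ratio was at least 1 or at most -1, a 2-fold difference, and 17235 genes that reached 10 counts in 1 or both libraries entered. Their median log2 ratio was -0.058.

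The labelled tissue was checked against its markers. All 9 epithelial markers were listed, with a summed level of 6515 CPM in control mIOs and 9762 CPM in DSS mIOs. Of the 9, 5 had a log2 ratio above 0 and 4 below, from Vil1 at 1.25 to Cdx2 at -1.35. Of 8 immune markers 4 were listed, at 14.1 and 24.2 CPM in sum, and Ptprc, Cd3e and Cd52 were among those not in the table, which holds only genes with at least 1 count in both libraries. Most of that sum was Cd68, with a log2 ratio of 0.73, and Itgam, with 1.14, while Lyz2 was at -0.56. Of 8 mesenchymal markers 4 were listed, at 5.73 and 34.9 CPM, nearly all of it Vim, and Col1a2, Col3a1, Dcn and Lum were not listed. Of 5 endothelial markers 3 were listed, at 1.03 and 3.16 CPM, and Cdh5 and Kdr were not. Tek had 12 counts in control mIOs and 97 in DSS mIOs, Pecam1 12 and 55, and Vwf 50 and 21. Markers of cell types within the epithelium differed between the libraries, which the labels both describe as intestinal stem cells. The summed level of 5 stem cell markers was 832 CPM in control mIOs and 130 CPM in DSS mIOs, that of 6 enterocyte markers 1403 and 18747 CPM, and that of 5 goblet cell markers 617 and 10319 CPM. The part of these shifts in the values below was not tested, and in bulk RNA fewer cells of a type and less RNA per cell cannot be told apart.

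The p53 pathway genes lay on both sides of 0. Of the 32, 11 had a log2 ratio above 0 and 21 below 0, and the median was -0.40. Of all genes, 52.0% were below 0. At the 2-fold line 5 were higher in DSS mIOs, Fas, Plk3, Btg2, Pmaip1 and Plk2, which is 15.6% of the genes beside 19.3% of all genes. A further 8 were lower, Pidd1, Phlda3, Ddb2, Aen, Trp53, Eda2r, Ddit4 and Zmat3, which is 25.0% beside 20.2% of all genes. The remaining 19 lay between the lines. Low counts widen the spread of ratios, and the lowest count of any of the 32 genes was 165. Over the 10827 genes with at least that count in both libraries, a background chosen after the data were seen, 12.2% were higher and 15.7% lower. At a log2 ratio of 2 or more lay 2 of the 32 genes, Fas and Plk3, beside 7.87% of all genes and 3.42% of those with enough counts. At -2 or less lay 2, Pidd1 and Phlda3, beside 6.54% and 3.25%. These shares differ from the background by a few genes at most, and nothing particular to the list is read from them. With scaling by total counts alone, the median of all genes shifted by -0.26, and 5 of the 32 genes were higher and 11 lower, beside 15.4% and 26.2% of all genes. Of all genes past the line, 48.9% were higher with TMM factors and 37.1% with total counts. With TMM factors, no counting interval of the 32 genes held 0, at counts of 165 or more. The matching share of all genes was not counted, so nothing particular to the list is read from this.

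**Figure D1:**
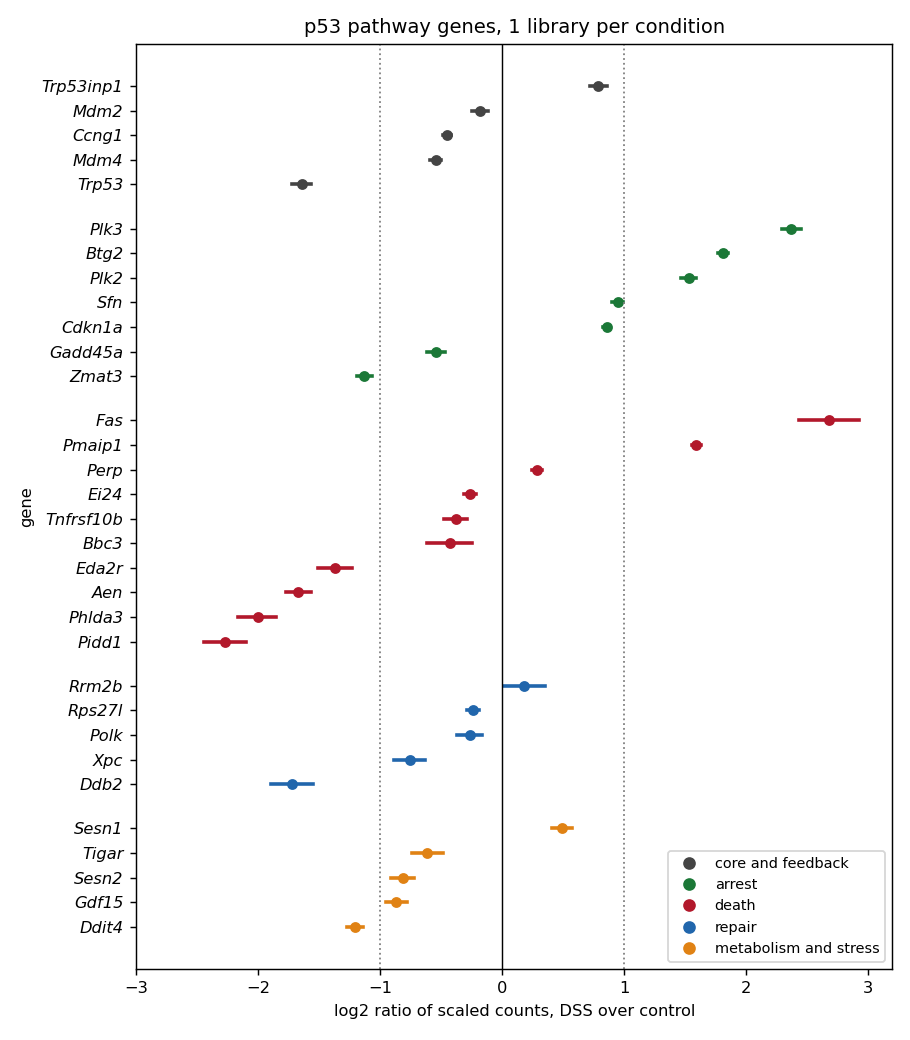
The plot of ratios by function gives for each of the 32 genes the log2 ratio of scaled counts, DSS over control (horizontal axis), with its exact 95% counting interval as a bar, grouped and coloured by function; dotted lines mark 1 and -1. Fas at 2.68 and Plk3 at 2.37 lie farthest to the right and Pidd1 at -2.27 and Phlda3 at -2.004 farthest to the left, and 5 of the 7 arrest genes are above 0.

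**Figure D2:**
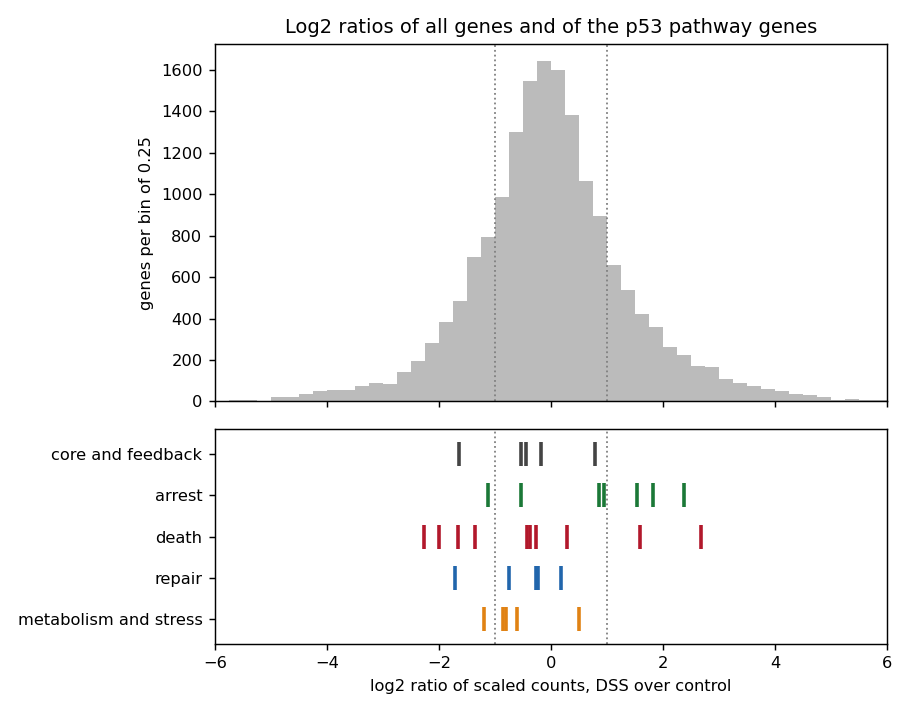
The upper panel counts all 17235 genes in bins of 0.25 of the log2 ratio, DSS over control, and the lower panel marks the 32 genes by function on the same axis; 20 genes more than 6 away from 0 are outside the axis. The 32 genes span -2.27 to 2.68 and are spread over the body of the distribution of all genes.

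The function groups differed in their balance. The 7 arrest genes had a median log2 ratio of 0.95, with 5 above 0. The medians were -0.45 for the 5 core and feedback genes and -0.40 for the 10 death genes. They were -0.27 for the 5 repair genes and -0.82 for the 5 metabolism and stress genes. In each of these groups most genes were below 0, beside 52.0% of all genes. The groups were drawn up by hand, with earlier results of these data known. Several genes act in more than 1 of them, and groups of 5 to 10 genes from 1 pair of libraries are a description only.

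Before the values of each group, the promoters show where a p53 site could be read close to the gene. RefSeq promoter windows of the build GRCm38.p6, from 250 bases before to 50 bases after a start site, were at hand for 24 of the 32 genes and not for Trp53inp1, Zmat3, Pmaip1, Tnfrsf10b, Perp, Ddb2, Xpc and Rrm2b. p53 binds as a tetramer to a pair of 10-base half-sites, and the half-site reads the same on both strands. A full match to the half-site was present in the windows of 10 of the 24 genes, Trp53, Mdm2, Ccng1, Cdkn1a, Gadd45a, Aen, Ei24, Polk, Rps27l and Sesn1, beside 9.55% of the 27025 genes with a window. A gene with several start sites was counted once. Most genes of the list are p53 targets, and nothing about these 2 libraries is read from this share. Of the 10 genes with a half-site, 2 had a log2 ratio above 0 and 8 below, and of the 14 without one 5 were above and 9 below. Of all genes, 52.0% were below 0, and groups this small are a description only. The following stretches show the half-site in capitals with 10 flanking bases on each side. They are those of the core genes, of Gadd45a from the arrest group and of Sesn1, which with Cdkn1a was the gene with a half-site and a ratio above 0. Sesn1 has 2 annotated start sites, and its distance is to 1 of them.
Trp53, beginning 75 bases upstream of its start site, chr11:69580274-69580303, plus strand: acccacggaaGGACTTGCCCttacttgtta
Mdm2, 186 bases upstream, chr10:117710925-117710954, minus strand: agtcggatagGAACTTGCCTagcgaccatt
Ccng1, 185 bases upstream, chr11:40755452-40755481, minus strand: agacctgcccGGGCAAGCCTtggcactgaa
Gadd45a, 40 bases upstream, chr6:67037428-67037457, minus strand: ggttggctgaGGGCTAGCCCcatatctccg
Sesn1, 173 bases upstream, chr10:41887256-41887285, plus strand: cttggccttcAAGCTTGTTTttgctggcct

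A pair of half-sites at most 13 bases apart was found in the window of 1 of the 24 genes, Cdkn1a, and in 0.074% of all genes with a window. It is shown because Cdkn1a had the highest level of the list in DSS mIOs. The capitals run from the start of the first half-site to the end of the second. Cdkn1a has 2 annotated start sites, and the pair begins 73 bases upstream of 1 of them. Only full matches to the half-site were sought, so a pair with a mismatch would not be marked.
Cdkn1a, chr17:29090896-29090947, plus strand: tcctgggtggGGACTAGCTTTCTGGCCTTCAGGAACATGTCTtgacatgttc
Motifs of other factors were searched after the values were seen. The palindrome TGACGTCA, the cAMP response element, was in the windows of 2 of the 24 genes, Btg2 and Plk2, beside 2.03% of all genes, and both genes were higher in DSS mIOs, while of those without it 5 lay above 0 and 17 below. Of all genes, 19.3% were higher, and nothing is read from 2 genes.
Btg2, 166 bases upstream, chr1:134079304-134079331, minus strand: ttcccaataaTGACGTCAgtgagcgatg
Plk2, 62 bases upstream, chr13:110394972-110394999, plus strand: gcgctcgccgTGACGTCAcgaggccccg
The E-box CACGTG was in the windows of 6 genes, Trp53, Bbc3, Fas, Eda2r, Aen and Gdf15, beside 8.09% of all genes, and 5 of these 6 had a log2 ratio below 0, as had 12 of the 18 without it. The TATA sequence TATAAA, searched on both strands, was in those of Trp53 and Eda2r, both below 0, beside 15.7% of all genes. Since 52.0% of all genes were below 0, nothing is read from the directions of these few genes. No match of 1 of these motifs can lie inside a match of another. A match is a string of letters in a window and was not tested as a binding site.

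Among the core genes, p53 itself was lower in DSS mIOs. Trp53, with NCBI gene identifier 22059, had 6765 counts in control mIOs and 1655 in DSS mIOs, or 94.5 and 30.3 CPM. This was 3.12-fold lower, a log2 ratio of -1.64 (-1.72 to -1.56). The half-site of its own window, given above, stood in a gene whose mRNA was lower. The mRNA level does not give the amount of p53 protein, which is set mainly by its stability.

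The feedback genes differed much less than Trp53. Mdm2 (17246), the ligase that marks p53 for destruction, had 4964 and 3343 counts, for a log2 ratio of -0.18 (-0.25 to -0.12). Mdm4, which binds p53 and blocks its activity without degrading it on its own, had 12682 and 6647 counts and a log2 ratio of -0.54 (-0.59 to -0.50). The log2 ratio of Mdm2 was above that of Mdm4 by 0.36 (0.29 to 0.44), and this difference does not depend on the scaling. Per kilobase of transcript, Mdm2 was at 22.4 and Mdm4 at 24.9 CPM in control mIOs, and at 19.7 and 17.1 in DSS mIOs. Per kilobase the inhibitors were thus at similar levels in both libraries, in opposite order. In raw counts Mdm4 exceeded Mdm2 in both libraries. A transcript antisense to Mdm4, Gm29257, overlaps it and had 250 and 55 counts, few beside those of Mdm4.

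Ccng1, cyclin G1, a target that brings a phosphatase to Mdm2, had the highest raw count of the list in control mIOs, 22781, against 12737 in DSS mIOs. Its log2 ratio was -0.45 (-0.48 to -0.42). Trp53inp1, a stress protein that promotes p53 phosphorylation and autophagy, was the 1 core gene on the other side of 0. It had 2833 and 3743 counts and a log2 ratio of 0.79 (0.72 to 0.86).

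The arrest genes held the most abundant mRNA of the list in DSS mIOs. Cdkn1a (12575), which encodes p21, the inhibitor of cyclin-dependent kinases through which p53 stops the cycle, had 19369 counts in control mIOs and 26794 in DSS mIOs. At 271 and 490 CPM it was 1.81-fold higher, a log2 ratio of 0.86 (0.83 to 0.88), below the 2-fold line. Trp53 and Cdkn1a therefore lay on opposite sides of 0. Sfn, 14-3-3 sigma, an epithelial protein that keeps mitotic kinase complexes in the cytoplasm, had 6285 and 9259 counts and a log2 ratio of 0.95 (0.90 to 0.99). It was the gene closest below the line of 1 and passed it with upper quartile factors, at 1.04, and when centred on the median of all genes, at 1.005.

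The arrest genes above the line of 1 encode a regulator of mRNA decay and a pair of kinases. Btg2 (12227), an antiproliferative protein that recruits the deadenylase complex to mRNAs, had 7450 and 19972 counts, or 104 and 365 CPM. It was 3.51-fold higher, with a log2 ratio of 1.81 (1.77 to 1.85). The polo-like kinases Plk2 and Plk3 are induced by stress and growth factors and, unlike Plk1, are not mitotic drivers. Plk2 had 3120 and 6880 counts and a log2 ratio of 1.53 (1.47 to 1.59). Plk3 (12795) had 1635 and 6456 counts and was 5.17-fold higher, with a log2 ratio of 2.37 (2.29 to 2.45). Plk2 exceeded Plk3 in control mIOs, at 15.6 against 9.61 CPM per kilobase, and lay below it in DSS mIOs, at 44.9 against 49.7. In raw counts Plk2 exceeded Plk3 in both libraries. The log2 ratio of Plk2 minus that of Plk3 was -0.84 (-0.94 to -0.74).

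The other arrest genes, Gadd45a and Zmat3, had ratios below 0. Gadd45a, a small stress protein that binds PCNA and Cdk1, had 4378 and 2299 counts and a log2 ratio of -0.54 (-0.61 to -0.47). An antisense transcript that overlaps it, E230016M11Rik, had 86 and 67 counts. Zmat3, a zinc finger protein that binds RNA, had 8342 and 2915 counts, and its log2 ratio was -1.13 (-1.19 to -1.07).

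The death genes spanned the whole range of the list. The BH3-only proteins Bbc3 (PUMA) and Pmaip1 (NOXA) neutralize the survival proteins of the BCL2 family, and their mRNAs differed in direction. Bbc3 had 672 and 382 counts, for a log2 ratio of -0.43 (-0.61 to -0.24). Pmaip1 (58801) had 7851 and 18072 counts, or 110 and 331 CPM, and was 3.01-fold higher, with a log2 ratio of 1.59 (1.55 to 1.63). The log2 ratio of Bbc3 minus that of Pmaip1 was -2.02 (-2.20 to -1.83). Per kilobase, Pmaip1 was at 40.2 and Bbc3 at 5.18 CPM in control mIOs, and at 121 and 3.85 in DSS mIOs, so Pmaip1 was the more abundant of the pair in both.

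The receptors placed in the death group also differed among themselves. Fas (14102), the receptor for Fas ligand and a target of both p53 and inflammatory signals, had the lowest count of the list in control mIOs, 165, and 806 in DSS mIOs. Its level was 2.31 CPM in control mIOs and 14.7 CPM in DSS mIOs, 6.39-fold higher, and its log2 ratio of 2.68 (2.43 to 2.93) was the highest of the 32. Tnfrsf10b, the mouse death receptor for TRAIL, had 2382 and 1399 counts and a log2 ratio of -0.38 (-0.48 to -0.28). Eda2r, a receptor for ectodysplasin A2, had 1813 and 537 counts and a log2 ratio of -1.37 (-1.51 to -1.23). The log2 ratio of Fas exceeded that of Tnfrsf10b by 3.06 (2.80 to 3.32). Fas was at 1.56 and Tnfrsf10b at 10.5 CPM per kilobase in control mIOs, and at 9.95 and 8.05 in DSS mIOs. Their order per kilobase thus differed between the libraries, while in raw counts Tnfrsf10b exceeded Fas in both.

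The lowest ratios of the list were those of Pidd1 and Phlda3, both of the death group. Pidd1 (57913), the scaffold of the complex that activates caspase-2, had 2096 counts in control mIOs and 332 in DSS mIOs. It was 4.82-fold lower, with a log2 ratio of -2.27 (-2.44 to -2.10). Phlda3, which restrains AKT by competing for membrane lipids, had 2111 and 402 counts and was 4.01-fold lower, with a log2 ratio of -2.004 (-2.16 to -1.85). Aen, a nuclease that degrades DNA and RNA in dying cells, had 4192 and 1007 counts and a log2 ratio of -1.67 (-1.77 to -1.57). The other death genes lay near 0. Ei24, a protein of the endoplasmic reticulum needed for autophagy, had 9588 and 6102 counts and a log2 ratio of -0.26 (-0.31 to -0.22). Perp, a tetraspan membrane protein that is also part of desmosomes, had 9118 and 8484 counts and a log2 ratio of 0.28 (0.24 to 0.33).

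Among the repair genes, both damage sensors of nucleotide excision repair had ratios below 0. Ddb2, which finds ultraviolet lesions in chromatin, had 1470 and 341 counts and was 3.29-fold lower, with a log2 ratio of -1.72 (-1.89 to -1.55). Xpc, which recognizes the distorted helix and starts the repair, had 1594 and 720 counts and a log2 ratio of -0.76 (-0.89 to -0.63). For Ddb2 minus Xpc the difference of log2 ratios was -0.96 (-1.17 to -0.75). Acp2 overlaps Ddb2 on the opposite strand and had 1526 and 1613 counts, a log2 ratio of 0.47, and whether the counting used strand is not given in the sources used here.

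The other repair genes lay close to 0. Polk, a polymerase that copies past damaged bases, had 1872 and 1189 counts and a log2 ratio of -0.27 (-0.37 to -0.16). Rrm2b, the ribonucleotide reductase subunit that supplies nucleotides outside S phase, had 618 and 536 counts. Its log2 ratio was 0.18 (0.014 to 0.35), and it was -0.073 with total counts, so its sign depended on the scaling. Rps27l, a ribosomal protein relative that p53 induces, had 8570 and 5557 counts and a log2 ratio of -0.24 (-0.29 to -0.19). Its close relative Rps27 had 43869 and 14489 counts and a log2 ratio of -1.21. Rps27l exceeded Rps27 in log2 ratio by 0.97 (0.92 to 1.03). The coding regions of the pair are much alike, so reads could be split between them and both values are uncertain.

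In the metabolism and stress group, 4 of 5 genes were below 0. Ddit4 (REDD1), which switches off mTORC1 under hypoxia and energy stress, had 7674 and 2537 counts, or 107 and 46.4 CPM. It was 2.31-fold lower, with a log2 ratio of -1.21 (-1.27 to -1.14). Gdf15, a secreted stress hormone of the TGF-beta family, had 3603 and 1510 counts and a log2 ratio of -0.87 (-0.95 to -0.78). Tigar, a phosphatase that slows glycolysis, had 1565 and 782 counts and a log2 ratio of -0.61 (-0.74 to -0.49).

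The sestrins, which hold back mTORC1 when amino acids are scarce or the cell is stressed, differed in direction. Sesn1 had 2147 and 2305 counts and a log2 ratio of 0.49 (0.41 to 0.58). Sesn2 had 3080 and 1337 counts and a log2 ratio of -0.82 (-0.91 to -0.72). Sesn1 exceeded Sesn2 in log2 ratio by 1.31 (1.18 to 1.43). Per kilobase, Sesn1 was at 7.88 and Sesn2 at 12.4 CPM in control mIOs, and at 11.1 and 7.04 in DSS mIOs, so Sesn1 was the more abundant sestrin in DSS mIOs only.

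Levels were compared between genes per kilobase of the longest annotated transcript, which all 32 genes had. In control mIOs, Rps27l was highest at 208, followed by Cdkn1a at 141, Ccng1 at 90.6 and Perp at 65.3 CPM per kilobase. In DSS mIOs, Cdkn1a was highest at 256, followed by Rps27l at 177, Btg2 at 133 and Pmaip1 at 121. Trp53 stood 8th of the 32 in control mIOs, at 50.6, and 16th in DSS mIOs, at 16.2. Fas stood last in control mIOs and 19th in DSS mIOs, and Plk3 22nd and 8th. Pidd1 stood last in DSS mIOs, at 1.86. Real transcript use is not known here, so places of genes with close levels are uncertain.

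**Figure D3:**
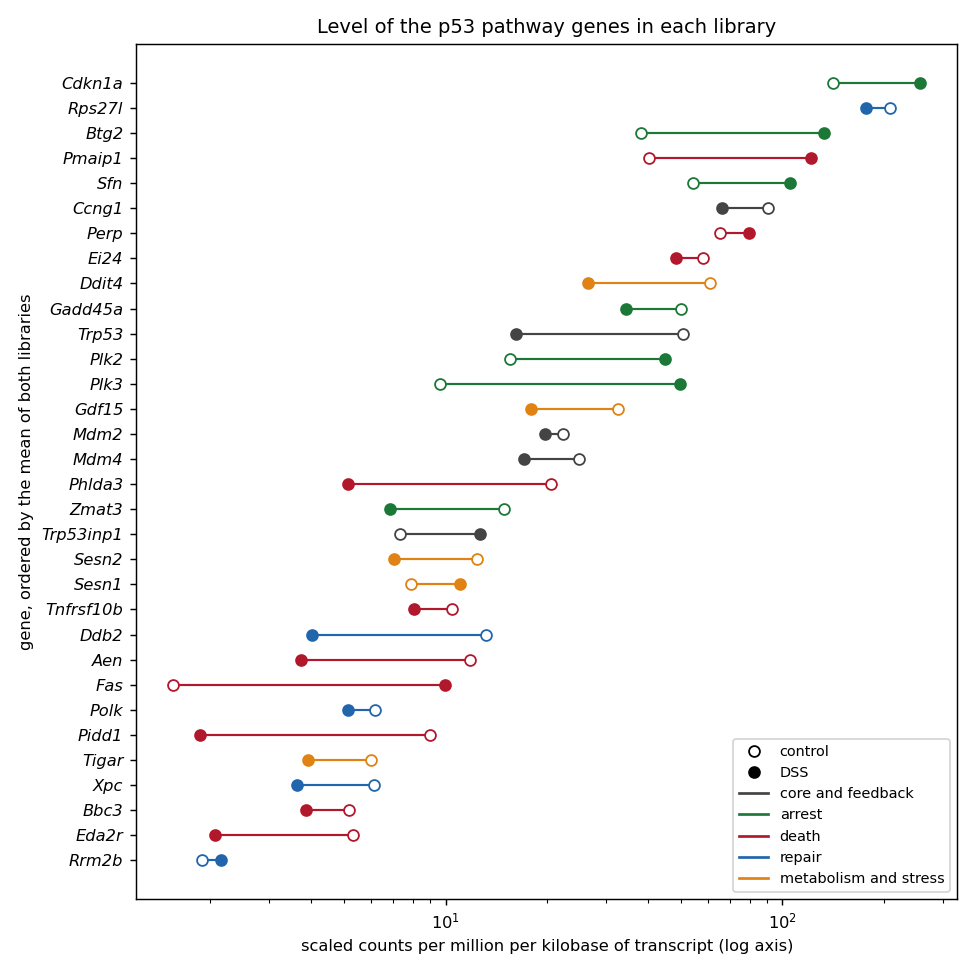
The plot of levels shows for each of the 32 genes the CPM per kilobase of transcript on a log axis, in control mIOs (open circle) and in DSS mIOs (filled circle), coloured by function and ordered by the mean of both libraries. Cdkn1a reaches 256 in DSS mIOs, and the longest shifts are those of Fas, from 1.56 to 9.95, and Plk3, from 9.61 to 49.7, to the right, and of Pidd1, from 8.98 to 1.86, to the left.

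By abundance, the 11 genes with the lowest mean level had a median log2 ratio of -0.61, the 10 in the middle -0.36 and the 11 with the highest level -0.24. Among the lowest 11, 9 genes were below 0, beside 52.0% of all genes, and Fas and Rrm2b were the others. Across the 32 genes Spearman's rho between the mean level and the log2 ratio was 0.38, beside 8.37e-05 over the 13680 genes with a transcript length. Over the 32 genes it was 0.0535 with the level of control mIOs alone, and the mean level shares the DSS count with the ratio. These are correlations across genes of 1 pair of libraries, and genes are not independent replicates.

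The summed level of the 32 genes was 1103 CPM per kilobase in control mIOs and 1304 in DSS mIOs with TMM factors, and 1205 and 1193 with total counts, so its direction depended on the scaling. The shares of the function groups within the sum do not depend on it. The arrest genes made up 29.4% of it in control mIOs and 48.3% in DSS mIOs. The share of the core and feedback genes was 17.8% and 10.1%, and that of the repair genes 21.4% and 14.7%. Most of the repair share was Rps27l alone, at 18.9% and 13.6%, whose count is uncertain because reads could be split with Rps27. The metabolism and stress genes made up 10.9% and 5.09%, and the death genes 20.6% and 21.8%.

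**Figure D4:**
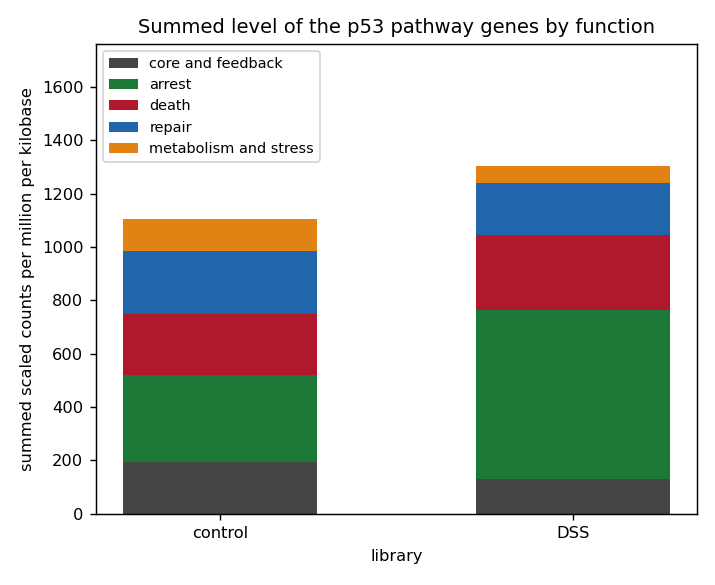
The bars give the summed CPM per kilobase of the 32 genes in each library, divided by function. With TMM factors, as drawn, the total is 1103 in control mIOs and 1304 in DSS mIOs, while with total counts it is 1205 and 1193, and the arrest genes take 324 and 630 of the totals drawn.

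Other genes of the pathway were taken from 4 hand-written lists with 71 genes in all. Of these, 66 were in the table and 65 passed the count minimum. Cdkn2a, the p19ARF locus, and the p53 relatives Trp63 and Trp73 were not listed, nor were Dram1 and Spata18, and Rprm had 2 counts in each library. Of the 65 genes, 3 were higher at the 2-fold line, or 4.62% beside 19.3% of all genes, and 26 lower, or 40.0% beside 20.2%, and 12 of those 26 are the cell cycle genes below. Without a test, these counts describe the 2 libraries.

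The upstream sensors and kinases, which detect DNA damage and phosphorylate p53, had a median log2 ratio of -0.96 over 10 genes, with none higher, beside 19.3% of all genes, and 5 lower, beside 20.2%. Chek1, the checkpoint kinase of stalled replication forks, had 1241 and 92 counts and a log2 ratio of -3.37. Topbp1, which activates Atr, was at -2.67 and Chek2 at -2.49. At the other end were Hipk2, a kinase that phosphorylates p53 in apoptosis, at 0.55, Atrip at 0.24 and Prkdc at -0.11, and the intervals of Atrip and Prkdc held 0. Atm itself was at -0.57 and Atr at -1.31.

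The 14 listed regulators of p53 had a median of -0.04, with 1 higher and 1 lower, 7.14% each beside 19.3% and 20.2% of all genes. Ppp1r13b (ASPP1), which directs p53 to death genes, had 2901 and 4892 counts and a log2 ratio of 1.14. Setd7 was at 0.64 and the coactivator Crebbp at 0.48. The arginine methyltransferase Prmt5 was lowest, with 5112 and 1073 counts and a log2 ratio of -1.86, followed by Trim24 at -0.87 and Usp10 at -0.76.

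The 29 further targets that passed had a median of -0.38, with 2 higher, 6.90% beside 19.3% of all genes, and 8 lower, 27.6% beside 20.2%. Igfbp3, which binds insulin-like growth factors, had 68 and 176 counts and a log2 ratio of 1.76, and Abhd4 was at 0.86. Steap3, a metalloreductase, had 655 and 25 counts and a log2 ratio of -4.32, and Gtse1 was at -4.13 and Ckap2 at -3.88. Gtse1 and Ckap2 encode proteins of the mitotic spindle and were not counted among the cell cycle genes below.

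p21 keeps the DREAM complex on cell cycle promoters and thereby lowers their genes. All 12 genes of this list were lower at the 2-fold line, beside 20.2% of all genes, with a median of -3.92. This list, like the others, was written with earlier results of these data known. Cdc20, which activates the anaphase-promoting complex, was at -4.61, Bub1 at -4.41 and Ccnb1 at -4.25, and those closest to 0 were Birc5 at -2.38, Plk4 at -3.26 and Cdk1 at -3.31. Their summed level was 996 CPM in control mIOs and 76.3 CPM in DSS mIOs, and the stem cell markers differed in the same direction. The 1.81-fold difference of Cdkn1a stands beside these values, and its part in them was not tested.

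**Figure D5:**
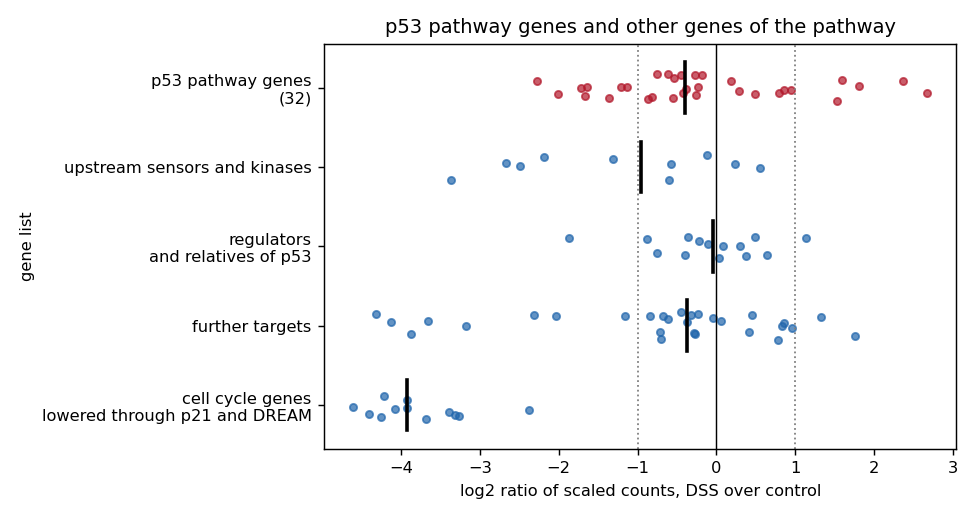
Each point is the log2 ratio, DSS over control, of 1 gene that reached the count minimum, in the 32 p53 pathway genes (red) and in 4 lists of other genes of the pathway (blue); black bars are medians, dotted lines mark 1 and -1, and vertical position within a list carries no meaning. The cell cycle genes lie between -4.61 and -2.38, while the 32 genes lie on both sides of 0 around a median of -0.40.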

How the data were processed

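The deposited values are unnormalized read counts per gene that the authors obtained from stranded poly(A) libraries of 1 control and 1 DSS-treated culture of mIOs, digested with TrypLE before lysis. The submitters' processing notes name HISAT2 and StringTie. Versions, roles, genome build and counting settings are not given in the sources used here. Files whose names say FPKM hold these counts again, equal for all 19294 genes.

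Counts were scaled with TMM factors of edgeR 4.0.16 (R 4.3.3), which were 1.09 for the control and 0.915 for the DSS library. The floor for a gene at 0 was 3 counts and was not needed. Levels per kilobase used the longest transcript of GENCODE vM21 tied to the NCBI gene identifier, with RefSeq-linked transcripts first. Intervals of differences between genes come from the Poisson error of the 4 counts. Scaling was also done by total counts, by DESeq2 1.42.0, by upper quartiles and by centring on the median gene. The deeper library was thinned, and a prior count of 2, other count minimums and a line of 2 were tried. The calculations ran in Python 3.11.15 with pandas 2.3.3, scipy 1.17.1, numpy 2.4.6 and matplotlib 3.10.9. The ratio and its interval were checked on simulated Poisson counts with the scaling taken as known. That check covers neither the scaling nor the spread between cultures.

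The 32 genes, the function groups and the other lists were chosen with earlier results of these data known. All 32 genes are named. Of the other lists, the 3 highest and 3 lowest log2 ratios with at least 50 counts in one library are named, except for items not reported here, and Atm and Atr besides, chosen after their values were seen.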

Additional observations from a re-analysis of the deposited data

How the results depend on the processing

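With 1 library per condition, no alternative could leave out a replicate, and no paired analysis was possible because each condition has 1 library. DESeq2 size factors, the prior count of 2 and thinning moved none of the 32 log2 ratios by more than its counting interval. By the same measure, upper quartile factors moved 19 of the 32 and centring on the median gene moved 9. Total counts moved 31 and reversed 1, so the choice of scaling exceeded the counting interval for many genes. With total counts the median of the 32 genes was -0.66, and the group medians were -0.71 for core and feedback, 0.69 for arrest, -0.66 for death, -0.52 for repair and -1.07 for metabolism and stress. Rrm2b turned to -0.073, the 1 reversal among the 32 genes under all scalings tried. With upper quartile factors these medians were -0.31, -0.36, 1.04, -0.31, -0.18 and -0.725. The log2 ratio of the summed level, 0.24 with TMM factors, was -0.0145 with total counts and 0.33 with upper quartile factors, chosen after the data were seen. The scaling shifts every gene alike. The mean in place of the median gave -0.18 for the 32 genes, 0.84 for arrest, -0.56 for repair and -0.60 for metabolism and stress. Leaving out genes of more than 1 function gave -0.54 for core and feedback, 1.24 for arrest and -0.76 for repair. At a line of 2 on the log2 scale, 2 of the 32 genes were higher, beside 7.87% of all genes, and 2 lower, beside 6.54%, and of the other pathway genes 0 were higher and 23 lower. Phlda3, at -2.004, lies on that line. The differences between cultures are not covered by any of these values.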
